A study of Homo sapiens with 6 samples.

Results

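The loci described here are the human microRNA genes that had a measurable level in RNA sequencing of 2 ovarian cancer cell lines. They were chosen as the symbols made of MIR or MIRLET and a number, with an optional letter and hyphen number and without the host genes ending in HG, whose largest TPM (a level scaled to transcript length and to a library total of 1000000) over the 6 libraries was at least 1. The TPM table held 59008 gene symbols, 1673 of them microRNA symbols by this pattern, and 16 met the threshold. Because the threshold used the TPM values themselves, the levels of the 16 loci are given as a description.

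The libraries came from Hey and SKOV3, established human ovarian cancer cell lines of which Hey was grown in MEM Eagle and SKOV3 in RPMI-1640, both with fetal bovine serum. Parental cells were untreated. Polyploid giant cancer cells (PGCCs), enlarged cells that survive the drug, had been given 500 nM paclitaxel, which stabilizes microtubules, for 16 h and had recovered for 3 days. For the SKOV3 PGCC library the sample title gives day 7 in place of 3 days. Daughter cells, the small cells that bud from PGCCs, had received the same dose and recovered for 30 days, and each daughter library was labelled as clone 1, so that each stands for 1 clone. Each of the 6 conditions was 1 library of total RNA, so no value carries a replicate error, and the second cell line was the only repeat of a comparison. Since these were bulk libraries, fewer cells of a kind and less RNA per cell cannot be told apart.

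A microRNA is transcribed as part of a longer primary transcript, often inside the intron of a host gene. The nuclease DROSHA with its partner DGCR8 cuts the hairpin out, XPO5 carries it to the cytoplasm, and DICER1 trims it to the short mature strand that is loaded into an Argonaute protein. The seed, bases 2 to 8 of the mature strand, pairs with target messenger RNAs. A standard RNA library does not capture the mature strand as such, so the TPM of a microRNA symbol is the level assigned to its annotated hairpin transcript and not the amount of mature microRNA.

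Mature sequences were found for 15 of the 16 loci in RefSeq (GRCh38.p14) and gave 23 strands with 22 different seeds. The strands below belong to the loci on which the results turn, namely the pair above 0 with a shared seed, those listed in the same state of both lines, and those with the largest levels. They are written 5′ to 3′ with the seed in capitals. MIR641, with the largest single level, had no mature entry there and is named only.
hsa-miR-221-3p: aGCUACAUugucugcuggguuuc
hsa-miR-222-3p: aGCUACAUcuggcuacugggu
hsa-miR-635: aCUUGGGCacugaaacaaugucc
hsa-miR-573: cUGAAGUGauguguaacugaucag
hsa-miR-589-5p: uGAGAACCacgucugcucugag
hsa-miR-589-3p: uCAGAACAaaugccgguucccaga
hsa-miR-378j: aCUGGAUUuggagccagaa
hsa-miR-138-5p: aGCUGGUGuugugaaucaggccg
The seed GCUACAU of hsa-miR-221-3p and hsa-miR-222-3p was the only one that occurred more than once among the 23 strands. These microRNAs are known to target the cell cycle inhibitor CDKN1B.

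The annotated hairpins of 5 loci are shown because their lengths and levels are compared throughout the results. The annotation release to which the authors assigned reads is not given, so the sequences used there may differ. Capitals mark only the mature strands entered in RefSeq, which had hsa-miR-221-3p alone for MIR221 and none for MIR641.
MIR221: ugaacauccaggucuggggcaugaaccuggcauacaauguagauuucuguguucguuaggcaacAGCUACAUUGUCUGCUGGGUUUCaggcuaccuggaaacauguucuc
MIR222: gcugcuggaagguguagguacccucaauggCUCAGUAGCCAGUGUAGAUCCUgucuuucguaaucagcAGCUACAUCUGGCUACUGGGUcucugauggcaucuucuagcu
MIR635: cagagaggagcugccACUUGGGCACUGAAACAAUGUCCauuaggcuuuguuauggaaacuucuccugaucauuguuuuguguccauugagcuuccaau
MIR573: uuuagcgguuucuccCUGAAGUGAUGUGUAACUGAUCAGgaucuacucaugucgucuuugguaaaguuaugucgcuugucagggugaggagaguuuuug
MIR641: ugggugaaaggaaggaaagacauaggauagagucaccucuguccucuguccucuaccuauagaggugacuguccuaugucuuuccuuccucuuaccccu
MIR221 (chrX:45746157-45746266, GRCh38, minus strand) and MIR222 (chrX:45747015-45747124, minus strand) lay in 1 cluster on the X chromosome and were both 110 nt long. MIR635 (chr17:68424451-68424548, minus strand) was 98 nt long. MIR573 (chr4:24520192-24520290, minus strand) and MIR641 (chr19:40282543-40282641, minus strand) were both 99 nt long.

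Most of the 16 loci were listed at 0 in most libraries. Over the 6 libraries they had 34 values above 0 and 62 values of 0. A level above 0 was found in 1 library for 7 loci, in 2 libraries for 4, in 3 libraries for 3, in 4 libraries for MIR589 and in all 6 libraries for MIR221. The number of loci above 0 was 10 in Hey PGCCs and between 3 and 6 in each of the other libraries. Hey PGCCs also had the most symbols of any kind above 0, 25370 against 19920 to 23893 in the others, and the part of this difference in the count of loci was not tested. The summed TPM of the 16 loci ranged from 44.5 in SKOV3 daughter cells to 527 in SKOV3 parental cells, where MIR641 alone held 69.1% of the sum.

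**Figure D1:**
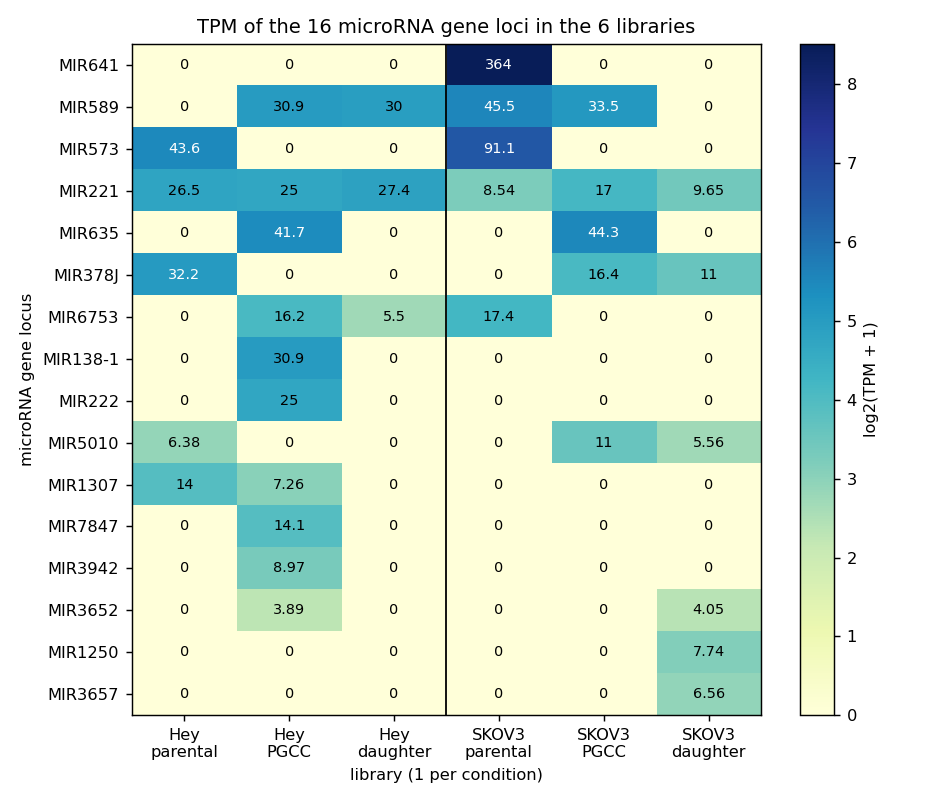
TPM of the 16 microRNA gene loci (rows, in order of mean TPM) in the 6 libraries (columns, 1 library per condition), coloured by log2(TPM + 1). MIR221 is the only row above 0 in every column, and 7 rows are above 0 in a single column.

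The gaps were far more common than among other genes with a largest TPM of at least 1. Only 1 of the 16 loci was above 0 in all 6 libraries, compared with 80.1% of 18043 symbols outside the small RNA classes. Other short RNA classes resembled the microRNA loci, since 15.1% of 73 small nucleolar RNA symbols and 2.5% of 80 small nuclear and Y RNA symbols were above 0 throughout. The median range of log2(TPM + 1) over the libraries was 4.06 for the microRNA loci, 2.73 for small nucleolar RNAs, 3.95 for small nuclear and Y RNAs and 1.51 for the other symbols. The threshold on the largest TPM selects loci with 1 high library, so these spreads are given without a test.

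MIR221 was measured in every library. In Hey it had 26.5 TPM before treatment, 25.0 TPM in PGCCs and 27.4 TPM in daughter cells. In SKOV3 the levels were 8.54, 17.0 and 9.65 TPM in the same order of states. All 3 Hey libraries were higher than all 3 SKOV3 libraries, with 1 library per condition and an unknown depth behind each value. In Hey the level differed between PGCCs and parental cells by -0.08 on the log2(TPM + 1) scale, and in SKOV3 by 0.91, below the difference of 1 used as the threshold (2-fold on this scale). Daughter cells differed from parental cells by 0.05 in Hey and by 0.16 in SKOV3, and both signs turned (-0.08 and -0.04) when the libraries were scaled by median ratios.

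MIR222 was listed only in Hey PGCCs, at 25.0 TPM, and at 0 in the other 5 libraries. Its value there equalled that of MIR221, which has the same length. Both lie in MIR222HG, the noncoding host transcript of the cluster, MIR221 partly in an exon and MIR222 in an intron. The TPM of MIR222HG was 11.8, 31.7 and 20.1 in Hey parental cells, PGCCs and daughter cells, and 14.5, 4.06 and 5.66 in the same states of SKOV3. The host was thus highest in the Hey PGCC library, the library that listed MIR222, while in SKOV3 PGCCs the host was at its lowest and MIR221 at its highest for that line.

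**Figure D2:**
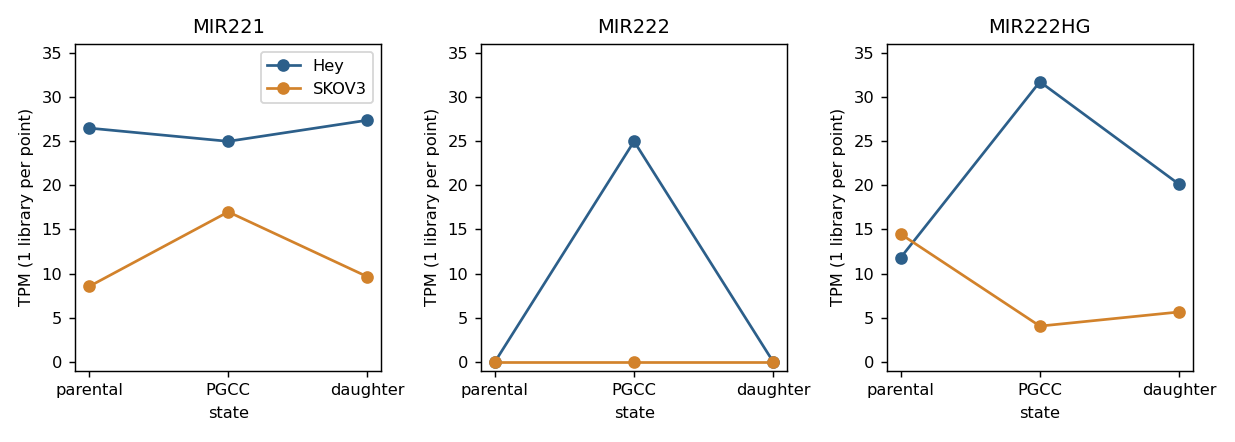
TPM of MIR221, MIR222 and their host transcript MIR222HG by state in Hey (blue) and SKOV3 (orange), 1 library per point. MIR221 stays between 25.0 and 27.4 in Hey, MIR222 is above 0 in Hey PGCCs only, and MIR222HG is highest in Hey PGCCs and lowest in SKOV3 PGCCs.

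MIR635 was listed in the PGCC library of both lines and nowhere else, at 41.7 TPM in Hey and 44.3 in SKOV3. It lies in an intron of WIPI1, which encodes a phosphoinositide-binding protein of autophagosome formation. WIPI1 itself had 24.4, 43.9 and 22.5 TPM in Hey parental cells, PGCCs and daughter cells, and 7.38, 8.02 and 9.75 TPM in the same states of SKOV3. The host was therefore highest in PGCCs in Hey but not in SKOV3.

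MIR573 showed the reverse, with 43.6 TPM in Hey parental cells, 91.1 in SKOV3 parental cells and 0 in the 4 PGCC and daughter libraries. Its host DHX15, a helicase that takes the spliceosome apart, was present throughout. DHX15 had 129, 92.5 and 123 TPM in Hey parental cells, PGCCs and daughter cells, and 181, 138 and 168 TPM in SKOV3. The host was highest in parental cells of both lines, and it had 92.5 TPM or more in each of the 4 libraries in which MIR573 was listed at 0. Whether a value of 0 stands for absence of MIR573 cannot be told, since the depth is unknown.

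MIR641 had the largest value of all, 364 TPM in SKOV3 parental cells, and was at 0 in the other 5 libraries. It lies in an intron of AKT2, a kinase of the phosphoinositide 3-kinase pathway. AKT2 had 24.4 TPM in SKOV3 parental cells, the lowest of its 6 values, which reached 51.1 in Hey daughter cells.

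MIR589 (chr7:5495819-5495917, minus strand, 99 nt) was above 0 in 4 libraries, with 30.9 TPM in Hey PGCCs, 30.0 in Hey daughter cells, 45.5 in SKOV3 parental cells and 33.5 in SKOV3 PGCCs. It was at 0 in Hey parental and SKOV3 daughter cells, so that the lines went in opposite directions from parental to daughter cells. Its host FBXL18, an F-box protein, ranged from 2.59 to 6.82 TPM.

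MIR378J (chr17:37614931-37615039, minus strand, intron of the RNA helicase gene DDX52) had 32.2 TPM in Hey parental cells, 16.4 in SKOV3 PGCCs and 11.0 in SKOV3 daughter cells, and 0 in the others. MIR5010 (chr17:42514188-42514307, plus strand, partly in an exon of ATP6V0A1) had 6.38 TPM in Hey parental cells, 11.0 in SKOV3 PGCCs and 5.56 in SKOV3 daughter cells, and 0 in the others. The same 3 libraries listed both loci. ATP6V0A1 encodes a subunit of the vacuolar proton pump.

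MIR6753 (chr11:68044794-68044957, plus strand, 164 nt, the longest of the 16) had 16.2 TPM in Hey PGCCs, 5.50 in Hey daughter cells and 17.4 in SKOV3 parental cells. It was at 0 in the other 3 libraries and lies in an intron of TCIRG1, another subunit gene of the vacuolar proton pump. TCIRG1 was lowest, at 2.88 TPM, in SKOV3 parental cells, where MIR6753 was highest.

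The 7 remaining loci were above 0 in 1 or 2 libraries. MIR138-1 (chr3:44114212-44114310, plus strand), the only locus of the 16 outside any gene on its strand, had 30.9 TPM in Hey PGCCs alone. MIR7847 (chr11:1880045-1880147, plus strand) had 14.1 TPM and MIR3942 (chr15:35372256-35372364, minus strand) 8.97 TPM, again in Hey PGCCs alone. Together with MIR222, 4 loci were thus found in that library only. MIR1250 (chr17:81133196-81133308, minus strand) at 7.74 TPM and MIR3657 (chr12:112037599-112037715, minus strand) at 6.56 TPM were found only in SKOV3 daughter cells. The host of MIR7847, the actin-binding protein gene LSP1, reached 0.941 TPM at most, and that of MIR1250, the kinase gene AATK, 0.510 TPM at most. The hosts of MIR3942 and MIR3657, the diphthamide synthesis gene DPH6 and the N-terminal acetyltransferase subunit gene NAA25, had 8.60 to 30.2 TPM and 14.9 to 24.5 TPM. A host level above 1 TPM therefore did not accompany every listed locus. MIR1307 (chr10:103394253-103394401, minus strand) had 14.0 TPM in Hey parental cells and 7.26 TPM in Hey PGCCs. It overlaps an exon of ATP5MK, a mitochondrial ATP synthase subunit gene listed in the table as ATP5MD, which had 116 to 306 TPM.

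MIR3652 (chr12:103930425-103930555, plus strand) had 3.89 TPM in Hey PGCCs and 4.05 TPM in SKOV3 daughter cells and was at 0 in the rest. It was the only one of the 16 that lay whole inside an exon of its host, HSP90B1, a chaperone of the endoplasmic reticulum with 626 to 1455 TPM. The full hairpin sequence occurred in 25 HSP90B1 transcripts of GENCODE release 44, so reads from either could be assigned to the other, and its level is uncertain. The hairpins of the other 15 loci occurred whole in 0 other transcripts. Only whole hairpins were searched for. The partial overlap of MIR221, MIR1307, MIR5010 and MIR7847 with exons of their hosts was therefore not covered, and its part in their levels was not tested.

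MIR3652 was the closest of the 16 to the threshold of 1 TPM, followed by MIR3657, MIR1250, MIR3942 and MIR5010. Below it stood only MIR623 (98 nt, in an intron of UBAC2), with 0.441 TPM in Hey parental cells, and the remaining microRNA symbols of the pattern were at 0 in all 6 libraries. MIR181B1 and MIR320B2 have a digit after the letter, which the symbol pattern did not allow. MIR181B1 had 16.7 TPM in Hey PGCCs and 8.54 TPM in SKOV3 parental cells, and MIR320B2 had 3.26 TPM in Hey daughter cells.

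Well-known microRNA families were absent from the 16. Apart from the pair of miR-221 and miR-222, 11 families were looked up, namely let-7, miR-17-92 with its paralogs, miR-200, miR-34, miR-21, miR-146 with miR-155, miR-23 with miR-24 and miR-27, miR-29, miR-15 with miR-16, miR-30, and miR-10 with its relatives. All 69 of their symbols were at 0 in every library. Only 7 of these, MIR98, MIR34A, MIR146A, MIR15B, MIR497, MIR10A and MIR10B, had a hairpin of at least 98 nt, the shortest length among listed microRNA symbols. By contrast, 32 of 69 microRNA host symbols ending in HG had a largest TPM of at least 1.

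The symbols above 0 shared a floor of annotated length, while most microRNA symbols at or above that floor were at 0 too. Lengths were found for 1668 of the 1673 microRNA symbols and ran from 41 to 180 nt with a median of 80 nt. None of the 1433 hairpins shorter than 98 nt was above 0 in any library. In the whole table, 0 of 2273 symbols with a single transcript shorter than 98 nt were above 0, so this floor was not particular to microRNA genes. The 16 loci measured 98 to 164 nt with a median of 109.5 nt. They made up 8 of 123 microRNA symbols of 98 to 109 nt (6.50%), 5 of 90 of 110 to 129 nt (5.56%) and 3 of 22 of 130 to 200 nt (13.6%). The median of their largest TPM was 38.2 in the shortest of these bins, 11.0 in the middle one and 14.0 in the longest.

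**Figure D3:**
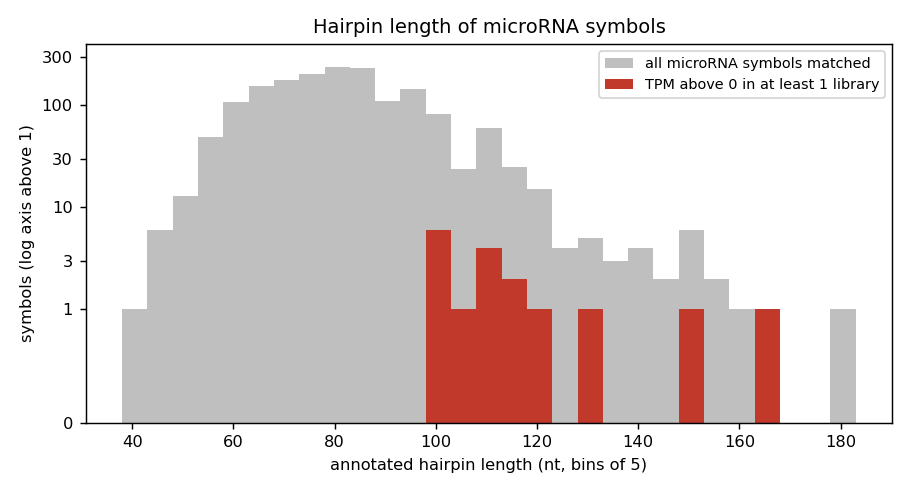
Number of microRNA symbols by annotated hairpin length in bins of 5 nt, on an axis that is linear up to 1 and logarithmic above. The symbols above 0 in at least 1 library (red) all lie at 98 nt or more, whereas most of the 1668 symbols matched (grey) are shorter.

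The levels themselves fell into steps set by length. Symbols of 98 to 200 nt with a single transcript were compared with others of exactly the same length in the same library, which gave 90 groups of at least 2 values above 0. Of the 169 values beyond the smallest of each group, 145 (85.8%) were whole multiples of the smallest within a tolerance of 0.03. Of these, 56 equalled the smallest and 89 were larger multiples. In SKOV3 parental cells the 99 nt loci MIR589, MIR573 and MIR641 had 45.5, 91.1 and 364 TPM, or 1, 2 and 8 steps of 45.5 TPM. In Hey PGCCs the 99 nt loci MIR138-1 and MIR589 shared the value of 30.9 TPM with the U6 pseudogene RNU6-892P. MIR221 and MIR222 both stood at 3 steps of 8.33 TPM in Hey PGCCs, and MIR221 at 1 step of 8.54 TPM in SKOV3 parental cells. No step was found for the other values of MIR221.

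A step could be found for 17 of the 34 values above 0. Of these, 10 were at 1 step, 2 at 2 steps, 4 at 3 steps and 1, that of MIR641, at 8 steps. MIR6753 was at 3 steps in Hey PGCCs, 1 step in Hey daughter cells and 3 steps in SKOV3 parental cells, and MIR3652 at 1 step in both of its libraries. Of the 62 values of 0, 10 had a step at that length. For 7 of these, 3 steps exceeded the largest level of the locus. MIR573 in Hey PGCCs was among them, where 3 steps were 92.6 TPM and its largest level was 91.1 TPM. The step is the largest that a group's values share, so a true step may be smaller and the number of steps larger. TPM values keep no read number, so the depth behind each value is unknown and no counting interval was given. Among the 16 loci the lowest of the largest levels was 4.05 TPM, which was 1 step for MIR3652 in SKOV3 daughter cells. A level above the threshold of 1 TPM therefore need not lie above the smallest value listed at that length.

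**Figure D4:**
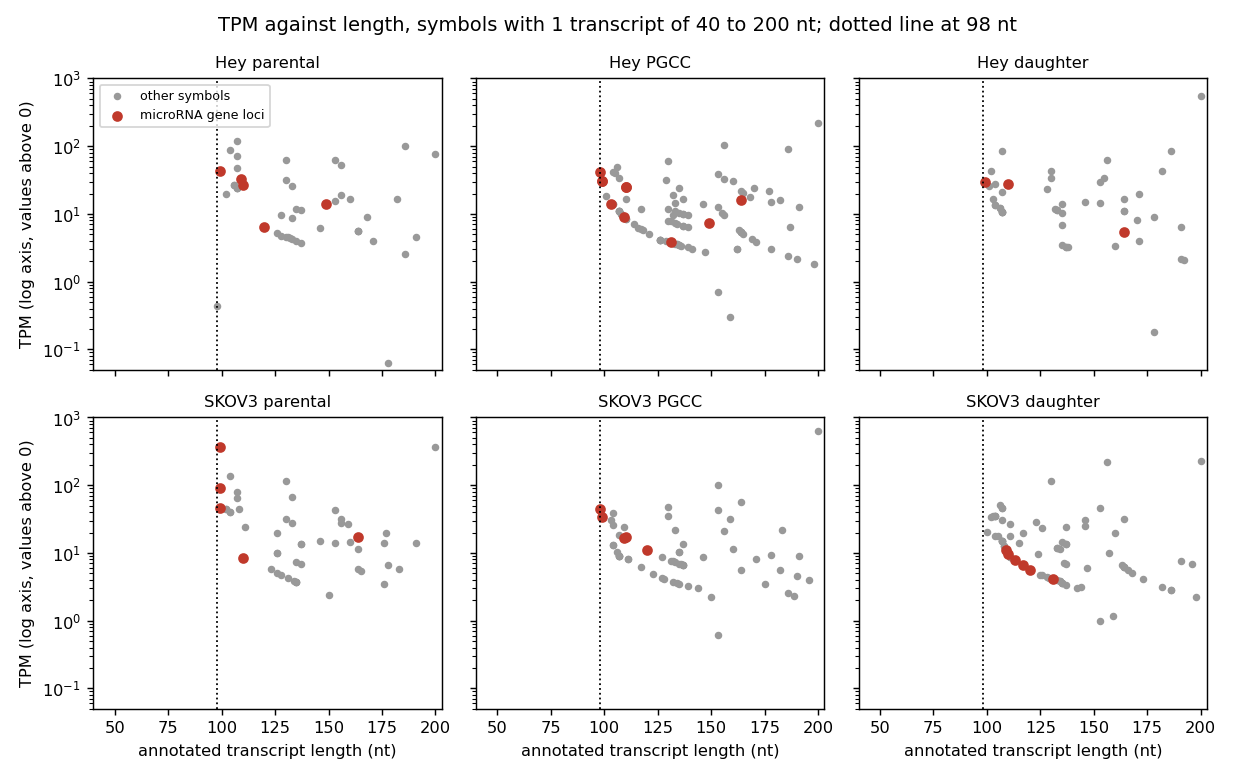
TPM above 0 (log axis) against annotated transcript length for symbols with a single transcript of 40 to 200 nt, 1 panel per library, with the 16 microRNA gene loci in red, other symbols in grey and a dotted line at 98 nt. No symbol lies left of the line. The lower edge of the values tends to be lower at greater lengths, but not steadily, and several loci lie near it. An exception is MIR623 (98 nt) at 0.441 TPM in Hey parental cells.

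The loci were compared with the 219 microRNA symbols of at least 98 nt that were not among the 16. A gene on the same strand contained 15 of the 16 loci and 161 (73.5%) of the others. An exon of that gene was touched by 5 of the 16 and by 51 (23.3%) of the others. The host had a mean TPM of at least 1 for 13 of the 16 and for 97 (44.3%) of the others. GC content ranged from 29.9% to 70.2% in the 16 loci, with a median of 52.5% against 51.3% in the others. These shares are given as a description, since the loci were chosen by their level in the libraries in which the hosts were measured.

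PGCCs were first compared with parental cells, the question being which loci differed after paclitaxel and 3 days of recovery. A locus was called at a difference of at least 1 on the log2(TPM + 1) scale. In Hey, 8 of the 16 loci were higher in PGCCs (MIR138-1, MIR222, MIR3652, MIR3942, MIR589, MIR635, MIR6753 and MIR7847), against 8.35% of the 18214 symbols with a largest TPM of at least 1. All 8 were listed at 0 in Hey parental cells. MIR378J, MIR5010 and MIR573 were lower, against 4.55% of all symbols. In SKOV3, MIR378J, MIR5010 and MIR635 were higher, against 9.33%, and MIR573, MIR641 and MIR6753 were lower, against 4.92%. A locus listed at 0 in most libraries and above 1 TPM in another had to pass this threshold, so nothing is read from the counts, and a difference against a value of 0 depends on the pseudocount and is no fold change.

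Both lines shared 1 locus in each direction. MIR635 was higher in PGCCs by 5.42 on the log2(TPM + 1) scale in Hey and by 5.50 in SKOV3, a direction shared by 0.785% of all symbols. No step was found for MIR635 at 98 nt in either PGCC library, so the number of steps behind its levels is unknown. At 99 nt the step in Hey PGCCs was 30.9 TPM, beside 41.7 TPM for MIR635 in that library. MIR573 differed by -5.48 in Hey and by -6.52 in SKOV3, a direction shared by 0.697% of all symbols. The lines went opposite ways for MIR378J and MIR5010, lower in Hey and higher in SKOV3 (0.604% of all symbols), and for MIR6753, higher in Hey and lower in SKOV3 (0.467%). The median difference over the 16 loci was 1.14 in Hey and 0 in SKOV3, beside 0.03 and 0.01 over all symbols.

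**Figure D5:**
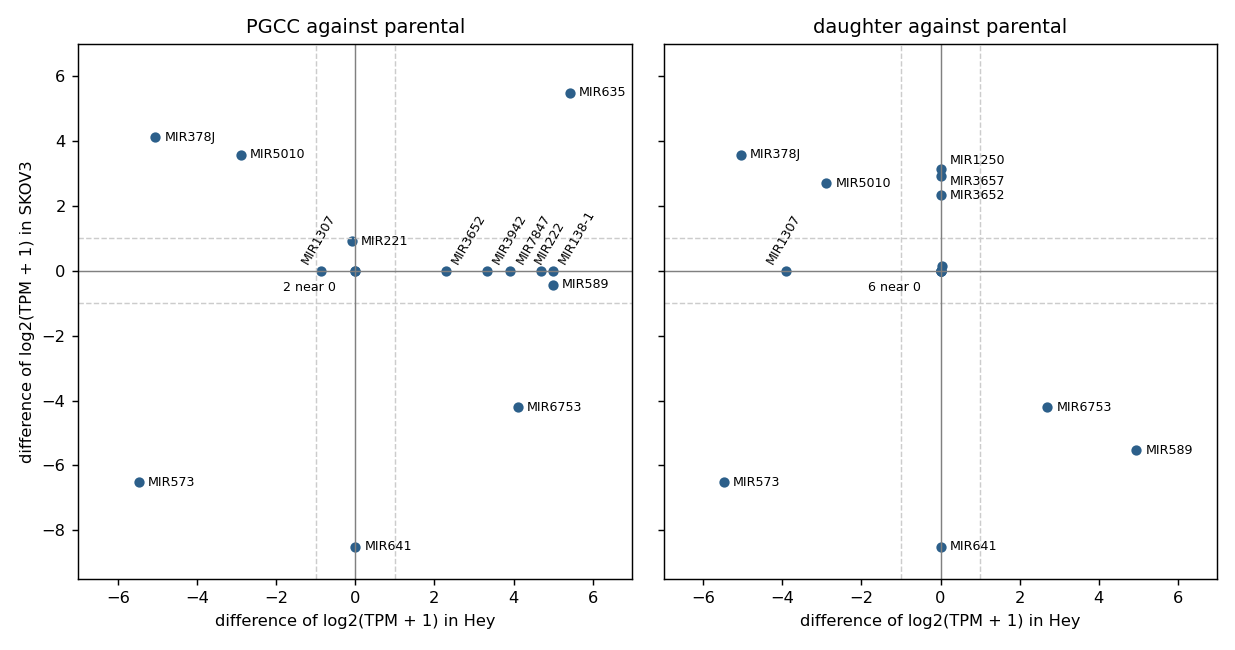
Difference of log2(TPM + 1) in Hey (horizontal) and in SKOV3 (vertical) for the 16 loci, PGCCs against parental cells on the left and daughter cells against parental cells on the right, with dashed lines at a difference of 1 either way. MIR573 is lower in both lines in both panels, MIR635 is higher in both lines in the left panel only, and MIR378J, MIR5010 and MIR6753 lie in quadrants of opposite direction.

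Daughter cells were then compared with parental cells, a comparison that uses the same parental libraries. In Hey, MIR589 and MIR6753 were higher, against 6.39% of all symbols, and MIR1307, MIR378J, MIR5010 and MIR573 were lower, against 3.49%. In SKOV3, MIR1250, MIR3652, MIR3657, MIR378J and MIR5010 were higher, against 16.5%, and MIR573, MIR589, MIR641 and MIR6753 were lower, against 6.34%. MIR573 was the only locus called the same way in both lines (lower, 0.335% of all symbols), with the same values as above because it was at 0 in PGCCs and daughter cells alike. None of the 16 was higher in both lines, against 1.04% of all symbols. MIR589 and MIR6753 were higher in Hey and lower in SKOV3 (0.538%), and MIR378J and MIR5010 were lower in Hey and higher in SKOV3 (0.703%).

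Daughter cells were last compared with PGCCs. In Hey, 8 loci were lower in daughter cells (MIR1307, MIR138-1, MIR222, MIR3652, MIR3942, MIR635, MIR6753 and MIR7847), against 8.58% of all symbols, and 0 were higher, against 8.94%. MIR6753 was the only one of these 8 still above 0 in Hey daughter cells. In SKOV3, MIR589 and MIR635 were lower, against 9.03%, and MIR1250, MIR3652 and MIR3657 were higher, against 15.6%. MIR635, at 0 in both daughter libraries, was the only locus lower in both lines (0.95% of all symbols). MIR3652 went opposite ways, lower in Hey and higher in SKOV3 (1.53%).

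A fit with limma over all 6 libraries had state and cell line as terms and 2 residual degrees of freedom. Its error joined the disagreement between the lines with a spread estimated from all symbols fitted (empirical Bayes moderation). Neither the SE nor the p therefore measures the spread between the lines alone. In PGCCs against parental cells the fit gave MIR573 a difference of -6.00 ± 0.51 (SE) on the log2(TPM + 1) scale. MIR635 had a difference of 5.46 ± 0.47 (SE) in that comparison. Both had a Benjamini-Hochberg adjusted p of 0.0128 in limma over 18214 symbols. The direction was seen in both lines for both loci. Each locus passed the threshold on the largest TPM only through the state in which it was high. These p-values are therefore given as a description, and no claim is drawn from them. The loci were 2 of only 4 symbols called (0.022%), and the others were the U6 pseudogenes RNU6-1161P (102 nt) and RNU6-125P (107 nt). In daughter against parental cells, MIR573 (adjusted p 0.0175 in limma) and RNU6-125P were called (0.011%). In daughter cells against PGCCs, MIR635 with a difference of -5.46 ± 0.47 (SE, adjusted p 0.0383 in limma) was the only call (0.00549%).

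The symbols called by limma were all 98 to 107 nt long and all listed at 0 in every library of the lower state. RNU6-125P, for example, had 71.7 TPM in Hey parental cells, 78.9 TPM in SKOV3 parental cells and 0 elsewhere, the same pattern as MIR573. Values of 0 in both lines have no spread between the lines, which lowers the error of such symbols in this fit. The threshold that chose the loci used the same values, so these p-values are no independent support. With any 1 of the 6 libraries left out, an alternative chosen after seeing the data, 0 of the 16 loci had an adjusted p under 0.05, while 1 to 6 had an unadjusted p under 0.05. At an unadjusted p under 0.05 the fit to all libraries also held MIR641, lower in PGCCs and in daughter cells than in parental cells by -4.26 ± 1.77 (SE, adjusted p 1 in limma), a difference that came from SKOV3 alone.

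The genes that make, load and turn over microRNAs were examined beside the loci as a list of 30 symbols, of which 28 were in the table and 26 had a largest TPM of at least 1. LIN28A and LIN28B, which block let-7 maturation, stayed below 1 TPM. No gene of the list was called the same way in both lines in any of the 3 comparisons. In PGCCs against parental cells of Hey, 1 gene was higher, against 8.35% of all symbols, and 1 lower, against 4.55%. In SKOV3 0 were called in either direction, against 9.33% and 4.92%. The higher one was ZSWIM8, a ubiquitin ligase adaptor that triggers decay of Argonaute with its microRNA, with 19.9 TPM in Hey parental cells and 41.8 TPM in Hey PGCCs. Its difference of 1.04 became 0.97, below the threshold, with median-ratio scaling. In SKOV3, ZSWIM8 had 18.6 TPM in parental cells and 36.6 TPM in PGCCs, a difference of 0.94 that missed the threshold. The lower one in Hey PGCCs was DGCR8, with 12.7 TPM in parental cells and 5.36 TPM in PGCCs, while in SKOV3 it had 14.4 and 14.1 TPM.

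DROSHA had 34.1, 16.8 and 50.6 TPM in Hey parental cells, PGCCs and daughter cells, and 42.9, 44.7 and 35.5 TPM in SKOV3. It was called only in Hey daughter cells against PGCCs, where the splicing and decay regulator KHSRP and the cap-binding partner SRRT were also higher (3 of 26 genes, against 8.94% of all symbols). In Hey PGCCs against parental cells its difference was -0.98, and it passed the threshold with median-ratio scaling (-1.06) and with a pseudocount of 0.1 (-1.02). In SKOV3 daughter cells DICER1 had 38.0 TPM, against 16.8 in parental cells and 17.0 in PGCCs, past the threshold in both comparisons. In the same library SND1, a nuclease associated with the silencing complex, had 124 TPM against 56.7 in parental cells. They were 2 of 26 genes higher than in parental cells, against 16.5% of all symbols, and DICER1 was the 1 gene higher than in PGCCs, against 15.6%. With median-ratio scaling none of these calls held, as DICER1 differed by 0.92 from parental cells and by 0.97 from PGCCs, and SND1 by 0.90 from parental cells. That scaling moved the differences of all symbols by a median of -0.20 in SKOV3 daughter cells against parental cells and by -0.14 against PGCCs. KHSRP was the 1 gene lower in SKOV3 daughter cells than in SKOV3 PGCCs, against 9.03% of all symbols, the opposite of Hey. The median difference over the 26 genes lay between -0.30 and 0.24 in the 6 comparisons within a line. The Argonaute genes AGO1 to AGO4 and the TNRC6 genes of the silencing complex were not called in any comparison, except that TNRC6C passed the threshold in SKOV3 daughter against parental cells with a pseudocount of 0.1 (1.05 in place of 0.81).

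Markers of cell types were looked up in each line. The epithelial markers KRT8, KRT18, KRT19, EPCAM and CDH1 summed to 723 to 1132 TPM in Hey, with CDH1 below 1, and to 830 to 2231 TPM in SKOV3. The ovarian markers PAX8, WT1, MUC16 and MSLN summed to 59.2 to 117 TPM in Hey, with MUC16 below 1, and to 100.4 to 185 TPM in SKOV3. Fibroblast markers summed to at most 3.17 TPM in Hey, where 2 of 5 genes reached 1 TPM. They summed to 12.0 to 27.3 TPM in SKOV3, where 4 of 5 genes reached 1 TPM, with COL1A2 below it. The leukocyte list summed to 45.6 to 69.3 TPM in Hey and 1.44 to 20.3 TPM in SKOV3, with CD68 as its 1 gene of 4 that reached 1 TPM and with PTPRC and CD3E below it. The endothelial list summed to 33.4 to 48.8 TPM in Hey and 0.0622 to 2.88 TPM in SKOV3, with CDH5 as its 1 gene of 3 that reached 1 TPM and with PECAM1 and VWF below it. The part of other cell types in the levels of the microRNA loci was not tested.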

How the data were processed

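RNA sequencing libraries of 6 samples, 1 per condition, were analysed. Per the submitters' processing notes, reads were trimmed with fastp and quantified with Salmon 0.14.1 on hg38, and the authors deposited TPM, with a single value for each symbol in each library. The annotation release, Salmon's bias options and the step from transcripts to symbols are not given in the sources used here. The TPM columns summed to 911825 to 920497. They carry no counts, so the depth per locus is unknown and count tests were not used.

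The TPM values were used as deposited. Differences within a line were taken on log2(TPM + 1) and called at 1 or more, with no p-value for 1 library against 1 library. limma 3.58.1 in R 4.3.3 was fitted on log2(TPM + 1) of the 18214 symbols with a largest TPM of at least 1, with state and cell line as terms, an intensity trend and Benjamini-Hochberg adjustment. Its empirical Bayes step drew the error of each symbol toward that of all symbols at a like level. Its p-values cover only the spread between these libraries, moderated in this way. Lengths, positions and hosts came from GENCODE release 44 on GRCh38, matched by symbol for 1668 of 1673 microRNA symbols, and sequences from RefSeq GRCh38.p14. A level was called a whole multiple within 0.03 of a whole number. Other steps ran in Python 3.11.15 (pandas 2.3.3, numpy 2.4.6, matplotlib 3.10.9, scipy 1.17.1). The limma fit and the search for steps were tested on simulated data.

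The loci and gene lists were chosen with earlier results of these data known. Named by rule were the 10 loci with the largest mean TPM, those called the same way in both lines, those above 0 in all 6 libraries, the listed families, those nearest the threshold, processing genes called the same way in both lines, and the host genes of the loci. MIR1307, MIR7847 and the processing genes called in 1 line were named after their values were seen. Alternatives were a pseudocount of 0.1, a threshold of 4-fold, a largest TPM of at least 5, no filter, a mean TPM of at least 1, median-ratio scaling, a wider symbol pattern, and limma without the line term or without the trend. Leaving out each library in turn was added after seeing the data. Of the marker genes, 1 is not reported here.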

Additional observations from a re-analysis of the deposited data

Results flagged for a closer look

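For several loci the differences had opposite signs in Hey and SKOV3, with 1 library per condition, so the difference between the lines was not tested. All differences are on the log2(TPM + 1) scale, and all of those for microRNA loci are against a library in which the locus was listed at 0. Where a step was found, the levels above 0 of these microRNA loci stood at 1 to 3 steps, and none was found for MIR5010. From parental cells to PGCCs, MIR378J differed by -5.05 in Hey and by 4.12 in SKOV3, MIR5010 by -2.88 and 3.58, and MIR6753 by 4.10 and -4.20. From parental to daughter cells, MIR378J differed by -5.05 in Hey and by 3.58 in SKOV3, and MIR5010 by -2.88 and 2.71. In the same comparison MIR589 differed by 4.95 in Hey and by -5.54 in SKOV3, and MIR6753 by 2.70 and -4.20. From PGCCs to daughter cells, MIR3652 differed by -2.29 in Hey and by 2.34 in SKOV3. KHSRP, an RNA-binding protein that aids microRNA maturation and was above 0 in every library, differed in that comparison by 1.15 in Hey and by -1.03 in SKOV3, both just past the threshold of 1.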

How the results depend on the processing

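No paired analysis was possible because no replicate numbers are given and each condition is 1 library, apart from the pairing by cell line. The cell line is a term of the limma fit, which is thereby blocked by line. Among loci above 0 in at least 1 library of a comparison, all 56 differences kept their side of the threshold with a pseudocount of 0.1 and with median-ratio scaling. All kept their sign with the former, and 2, those of MIR221 in daughter against parental cells, changed sign with the latter. The counts of called loci stayed within 1.5 times with a threshold of 4-fold, a largest TPM of at least 5 and no filter. With the wider symbol pattern, 1 in place of 0 of the loci was higher in daughter cells than in PGCCs of Hey. The number of loci called by limma was 1 in PGCCs against parental cells and 0 in daughter cells against PGCCs with a pseudocount of 0.1, and 0 in the latter when the filter was a mean TPM of 1 or more. Without the cell line term it was 0 in all 3 comparisons, where 1 or 2 loci had an unadjusted p under 0.05. When each library was left out in turn it ranged from 0 to 0 in all 3 comparisons, with 1 residual degree of freedom. For the processing genes in PGCCs against parental cells of Hey, the number lower was 2 with a pseudocount of 0.1 (DROSHA added), and median-ratio scaling gave 0 higher (ZSWIM8 lost) and 2 lower. In SKOV3 daughter cells, median-ratio scaling gave 0 processing genes higher than in parental cells (DICER1 and SND1 lost), and 0 higher (DICER1 lost) and 2 lower (SRRT added) than in PGCCs. The cause was not tested. The unknown depth limits every level of the loci. Of the 17 values with a step, 16 stood at 3 steps or fewer, a lower bound because a true step may be smaller.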
